A study of Mus musculus with 4 samples.

Results

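The passenger strands outside the repeat-rich families were examined in mouse abdominal skin after topical shikonin. They were taken by name from the deposited spot table of a miRNA array: of its 710 miRNAs, 119 carried an asterisk, and 87 of these were kept. The other 32 were left out by name: those of the miR-200 family and miR-205, of the repeat-rich families miR-669, miR-467, miR-466 and miR-297, of miRNAs numbered from miR-673 upwards, and 11 single strands such as miR-29a* and miR-378*. The rule used the names alone. A guide row, the same name without the asterisk, was present for 76 of the 87, and the other 11, such as let-7c-1* and miR-24-2*, are named for 1 of several hairpins or had no such row.

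Skin of female C57BL/6JNarl mice was pipetted with 100 μl of acetone that held shikonin at 10 μg/μl, or with acetone alone, and total RNA was taken 24 hr later. Shikonin is a naphthoquinone pigment from the roots of Lithospermum erythrorhizon, and acetone was its solvent, so both groups had acetone on the skin. There were 2 arrays of shikonin-treated and 2 of acetone-treated skin, and each carried 8 spots per miRNA. Both arrays of a treatment are described as biological sample replicates, run on separate chips. How many animals they came from is given in neither the labels nor the methods, and the p-values rest on the spread between 2 arrays. Whole skin was used, in which fewer cells of a type and less RNA per cell cannot be told apart.

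A miRNA hairpin is cut by Dicer into a short duplex. The guide strand is kept in an Argonaute protein and steers it to mRNAs through its seed, the bases near its 5′ end, whereas the passenger strand, marked with an asterisk in the older names, is mostly discarded. The asterisk records which strand was found less often when the hairpin was named, and in some tissues both strands are loaded or the order is turned round. miR-140* is a strand of that kind, since it is the more abundant arm of its hairpin in many tissues, and miR-483*, from the Igf2 locus, is known to restrain keratinocyte proliferation during wound closure.

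The strands on which the results turn are shown here with the seed in capitals, bases 2 to 8. They are RefSeq sequences (GRCm38.p6), and 80 of the 87 strands matched an entry. The deposited tables give only the asterisk names, so the arm was assigned by nomenclature. In the first 4 each shikonin array read higher than each acetone array, and the next 3 were above background on all 4 arrays or, for miR-203*, on the acetone arrays alone.
miR-483*: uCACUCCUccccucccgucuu
miR-138*: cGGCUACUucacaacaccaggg
miR-330*: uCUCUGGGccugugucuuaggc
miR-382*: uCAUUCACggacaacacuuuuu
miR-24-2*: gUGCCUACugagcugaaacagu
miR-140*: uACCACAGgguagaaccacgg
miR-203*: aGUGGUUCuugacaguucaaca
The 7 seeds differ from each other. Across the 80 matched strands there were 72 different seeds, and 6 of them were shared, by 14 strands in all. The largest such set was let-7a*, let-7b*, let-7c-2* and let-7f*, which share the seed UAUACAA. By the arms assigned, let-7a* and let-7c-2* have the same 22 bases throughout, so their rows do not stand for separate sequences. Those rows had log2 fold changes of 0.09 and -0.0025. Of the set, let-7a* and let-7b* are shown, because none of its strands was above background while their guides were.
let-7a*: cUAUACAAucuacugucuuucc
let-7b*: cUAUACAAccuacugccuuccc
miR-483* lies at chr7:142654932-142654952 on the minus strand, inside the annotated span of Igf2, the gene of a fetal growth factor. The whole hairpin, chr7:142654924-142654996, is shown with the passenger strand in capitals.
Mir483: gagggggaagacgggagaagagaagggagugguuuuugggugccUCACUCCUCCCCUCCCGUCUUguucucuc
Its guide, miR-483-5p, has another seed.
miR-483: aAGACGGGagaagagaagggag

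Levels were the spot medians, quantile normalized over the 4 arrays and put on the log2 scale, and no background was subtracted, which understates the differences of dim miRNAs. A miRNA was counted as above background on an array when its median spot exceeded that of 37 guide miRNAs of other tissues (brain, liver, pancreas, embryonic stem cells and testis) by more than 3 median absolute deviations. Of the 710 miRNAs, 281 (39.6%) were above background on at least 1 array. All 7 skin epithelial markers, among them miR-203 and miR-200c, were above background on at least 1 array, and so were all 4 stromal and all 4 striated muscle markers, whereas 2 of 5 leukocyte and 1 of 3 red blood cell markers were on none.

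The passenger strands were mostly at background. Of the 87, 15 (17.2%) were above background on at least 1 array and 3 on all 4, whereas 72 were above it on none. By the same rule 42.5% of the rows without an asterisk (251 of 591) and 46.9% of the other 32 starred rows were above background on at least 1 array, and so were 43 of the 76 guide rows, 28 of them on all 4. Of these guides, 9 belong to the 37 miRNAs that set the background. On the shikonin arrays 8 and 9 passenger strands were above background, against 5 and 11 on the acetone arrays. Of the 15, 4 were above it on shikonin arrays alone (miR-138*, miR-382*, miR-15a*, miR-16*), 4 on acetone arrays alone (miR-203*, miR-17*, miR-28*, miR-31*), and 7 on arrays of both groups. The miRNAs other than miR-138* and miR-203* in these lists exceeded the threshold on 1 array each.

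**Figure D1:**
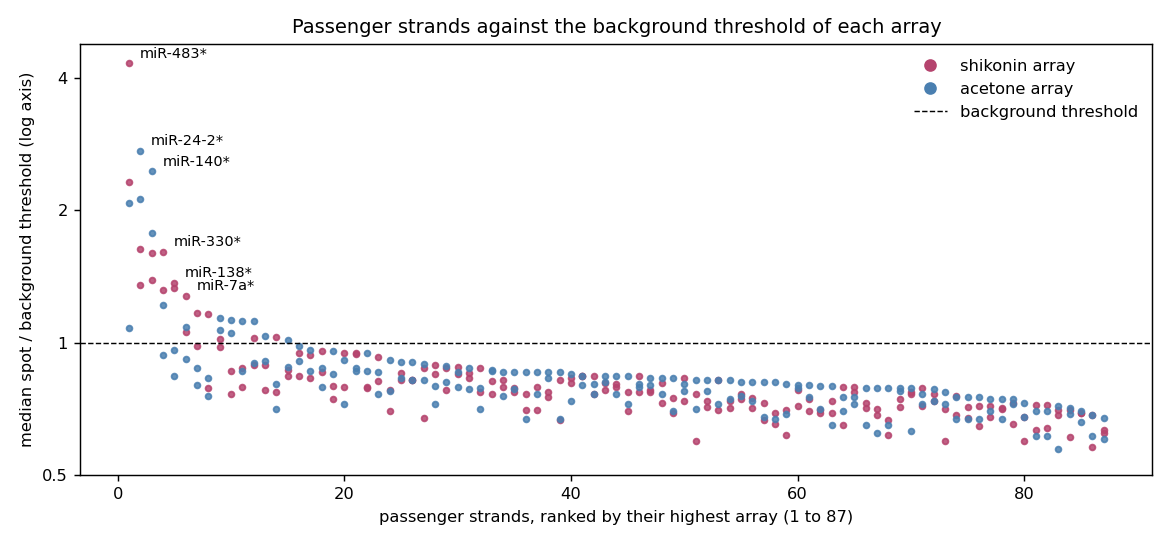
Median spot of each of the 87 passenger strands divided by the background threshold of its array (log axis), ranked by the highest of the 4 arrays, shikonin arrays in red and acetone arrays in blue. miR-483* reached 4.32 times the threshold on a shikonin array, and 72 strands stayed below the dashed line on every array.

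No passenger strand passed the test of shikonin against acetone. With limma, 0 of 87 had an adjusted p under 0.05, against 2 of all 710 miRNAs (0.282%). At an unadjusted p under 0.05, 5 (5.75%) were higher and 1 (1.15%) was lower on the shikonin arrays, where 6.62% of all miRNAs were higher and 11.0% lower. The 2 groups did not overlap for 22 strands (25.3%) with higher and 14 (16.1%) with lower shikonin values, against 22.4% and 26.8% of all miRNAs. The share with higher shikonin values was therefore near that over all miRNAs, and the share with lower ones was below it. The median log2 fold change was -0.0059 over the 87 strands and also -0.0059 over all 710 miRNAs. With 2 arrays a group, 0.333 is the smallest two-sided p that an exact permutation test can give for a miRNA.

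miR-483* had the widest difference. Its median spot intensity was 1973 and 1260 on the shikonin arrays and 452 and 948 on the acetone arrays. On the normalized log2 scale its level was 11.37 and 10.41 on the shikonin arrays, against 9.05 and 9.65 on the acetone arrays. Each shikonin array was above each acetone array, and all 6 filled spots of each of the 4 arrays were above the threshold. The replicates lay far apart, with a mean of 10.89 ± 0.68 (SD, n = 2) in shikonin-treated and 9.35 ± 0.43 (SD, n = 2) in acetone-treated skin. The log2 fold change was 1.54 (SE 0.41), or 2.91-fold, with a 95% interval of 0.40 to 2.68 and a limma adjusted p of 0.187. With 1 array left out in turn the log2 fold change was 1.10 to 2.17, highest without shikonin replicate 2. Its guide, miR-483, differed by 0.27 (SE 0.17), with 10.77 and 10.47 on the shikonin arrays and 10.50 and 10.20 on the acetone arrays. The guide's groups overlapped, and its log2 fold change was 0.11 without acetone replicate 2, 0.12 without shikonin replicate 1, 0.43 without acetone replicate 1 and 0.47 without shikonin replicate 2.

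miR-138* and miR-330* also separated the groups. miR-138 is a miRNA best known from brain, where it acts on dendritic spines. miR-138* had a log2 level of 9.46 and 9.38 on the shikonin arrays, above background on both, and of 8.68 and 8.74 on the acetone arrays, above background on neither. Its group means were 9.42 ± 0.05 in shikonin-treated and 8.71 ± 0.04 in acetone-treated skin (SD, n = 2 each). The fitted log2 fold change was 0.71 (SE 0.08), with a limma adjusted p of 0.125. The limma adjusted p was 0.0197 when the prior spread of limma followed the intensity, a setting that called more miRNAs in all. Over 17 alternatives miR-138* passed the threshold in 2, and its limma adjusted p was as high as 0.98. Since the acetone arrays give only a bound, miR-138* was at least 1.48-fold higher on the shikonin arrays. This bound sets the shikonin mean against the acetone thresholds.

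The spots of miR-138* ran from 304 to 824 and from 480 to 1336 on the shikonin arrays, with 5 and 7 of 8 above the threshold. On the acetone arrays they ran from 304 to 432 and from 336 to 536, with 1 and 3 of 8 above it. Its guide, miR-138, was above background on no array.

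miR-330* comes from the 5′ arm of a hairpin inside the span of Eml2, a microtubule-associated protein gene. Its median spot intensity was 600 and 876 on the shikonin arrays and 392 and 556 on the acetone arrays, above background on all but acetone replicate 1. Its mean log2 level was 9.52 ± 0.21 in shikonin-treated and 8.91 ± 0.12 in acetone-treated skin (SD, n = 2 each), and the groups did not overlap. The log2 fold change was 0.61 (SE 0.14), or 1.53-fold, with a limma adjusted p of 0.161. All 6 filled spots were above the threshold on both shikonin arrays, against 2 and 5 of 6 on the acetone arrays. Its guide, miR-330, was above background on no array.

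The remaining strands with higher shikonin values were closer to the threshold. The log2 level of miR-382*, which belongs to the imprinted miRNAs between Dlk1 and Dio3, was 8.92 and 9.15 on the shikonin arrays and 8.62 and 8.60 on the acetone arrays. Its log2 fold change was 0.43 (SE 0.11, limma adjusted p 0.187), but it was above background on shikonin replicate 2 alone. miR-15a* and miR-16*, from the hairpins of a pair of neighbouring miRNAs whose guides repress Bcl2, were also above background on shikonin replicate 2 alone. miR-15a* had 8.58 and 9.14 on the shikonin arrays, against 8.52 and 8.53 on the acetone arrays. miR-16* had 8.55 and 8.90 on the shikonin arrays, against 8.43 and 8.48 on the acetone arrays. On shikonin replicate 2 the spots drifted with their order in the table by up to 1.18 log2 units above the median of their miRNA, compared with at most 0.42 on the other arrays. With this drift removed the log2 fold changes were 0.49 for miR-382*, 0.27 for miR-15a* and 0.24 for miR-16*. Without shikonin replicate 2 they were 0.05 for miR-15a* and 0.09 for miR-16*, and without shikonin replicate 1 they were 0.62 and 0.45. These 3 strands were named after their values were seen.

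miR-7a*, whose guide is typical of brain and endocrine cells, had a log2 level of 9.30 and 8.97 on the shikonin arrays and 8.81 and 8.89 on the acetone arrays. The groups did not overlap, and the log2 fold change was 0.28 (SE 0.14, limma adjusted p 0.450). It was 0.12 without shikonin replicate 1 and 0.49 without shikonin replicate 2. miR-488* was the fifth strand with an unadjusted p under 0.05, with a log2 fold change of 0.23, but it was above background on no array.

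**Figure D2:**
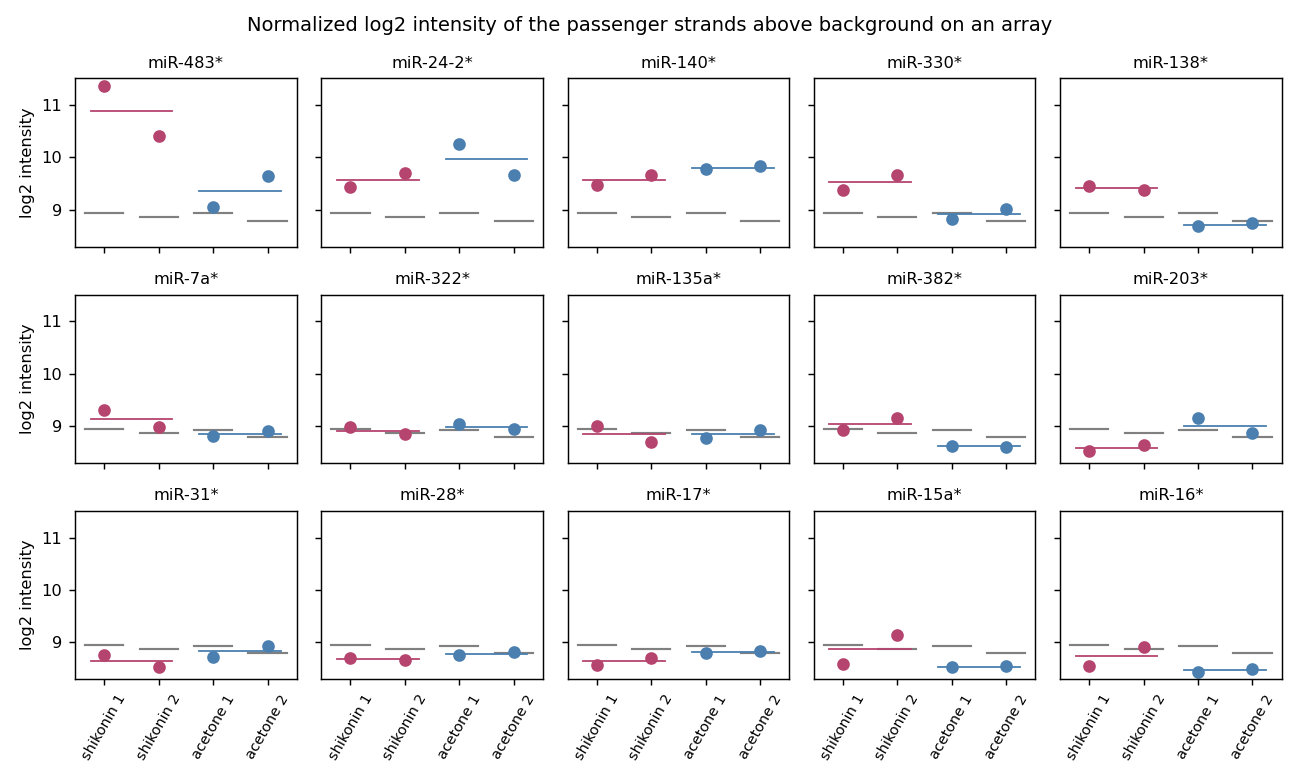
Normalized log2 intensity of the 15 passenger strands above background on at least 1 array, with shikonin replicates 1 and 2 in red and acetone replicates 1 and 2 in blue. Coloured lines are the group means and grey lines the threshold of each array. In 7 strands both shikonin arrays lie above both acetone arrays: miR-483*, miR-330*, miR-138*, miR-382*, miR-15a*, miR-16* and miR-7a*. In 4 they lie below both: miR-203*, miR-140*, miR-17* and miR-28*. Of all miRNAs 22.4% were separated and higher and 26.8% separated and lower. miR-138*, miR-382*, miR-15a* and miR-16* entered the set through shikonin arrays alone, and miR-203*, miR-17*, miR-28* and miR-31* through acetone arrays alone. Their directions are therefore partly set by the filter.

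miR-203* was the strand with the lowest log2 fold change. Its guide miR-203 is the best known miRNA of the stratified epidermis, where it represses the stem cell factor p63. miR-203* had a log2 level of 8.52 and 8.63 on the shikonin arrays, above background on neither, and of 9.14 and 8.85 on the acetone arrays, above background on both. The log2 fold change was -0.42 (SE 0.13, 95% interval -0.80 to -0.04), with a limma adjusted p of 0.248. It was -0.27 without acetone replicate 1 and -0.51 without acetone replicate 2. Set against the thresholds of the shikonin arrays, the acetone mean was at least 1.07-fold higher. Of 8 spots, 0 and 1 were above the threshold on the shikonin arrays, against 5 and 6 on the acetone arrays. Its guide miR-203 differed in the same direction, with a log2 level of 11.42 and 9.64 on the shikonin arrays and 12.34 and 12.14 on the acetone arrays. The guide's log2 fold change was -1.71 (SE 0.64), with a limma adjusted p of 0.296. It was -2.60 without shikonin replicate 1 and -0.90 without shikonin replicate 2.

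Markers of several cell types also lay lower on the shikonin arrays. The mean log2 level of the 7 epithelial markers was 8.96 to 9.72 on the shikonin arrays and 10.34 to 10.54 on the acetone arrays, and without miR-203 it was 8.84 to 9.44 against 10.04 to 10.25. That of the 4 striated muscle markers was 9.55 to 9.89 on the shikonin arrays and 10.19 to 11.13 on the acetone arrays, and that of the 4 stromal markers was 10.37 to 10.48 against 10.90 to 11.14. The endothelial marker had 10.52 on both shikonin arrays, against 11.37 to 12.01 on the acetone arrays. The groups overlapped for the 5 leukocyte markers, with 9.09 to 9.24 on the shikonin arrays and 9.18 to 9.33 on the acetone arrays, and for the 3 red blood cell markers, with 8.72 to 8.93 against 8.73 to 8.90. Their part in the values of miR-203* and of the guides was not tested.

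miR-24-2* and miR-140* were the other strands above background on all 4 arrays. miR-24 acts in keratinocyte differentiation, and miR-24-2* is the 5′ arm of the hairpin Mir24-2. miR-24-2* had a log2 level of 9.42 and 9.70 on the shikonin arrays and 10.25 and 9.67 on the acetone arrays, so that the groups overlapped, with a log2 fold change of -0.40 (SE 0.24, limma adjusted p 0.512). It was -0.65 without acetone replicate 2 and -0.09 without acetone replicate 1. miR-24-1*, which shares its seed UGCCUAC, was above background on no array.

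miR-140, a miRNA of cartilage, carries miR-140* as its 3′ arm. miR-140* had 9.47 and 9.66 on the shikonin arrays and 9.77 and 9.83 on the acetone arrays, with a log2 fold change of -0.24 (SE 0.10, limma adjusted p 0.380). The groups did not overlap. Its guide, miR-140, was above background on no array, so the strand named as the passenger was the one detected on this chip. miR-322*, from the mouse counterpart of human miR-424, had 8.97 and 8.84 on the shikonin arrays and 9.03 and 8.94 on the acetone arrays, with overlapping groups and a log2 fold change of -0.08 (SE 0.10), which was -0.02 without shikonin replicate 2 and -0.16 without shikonin replicate 1.

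**Figure D3:**
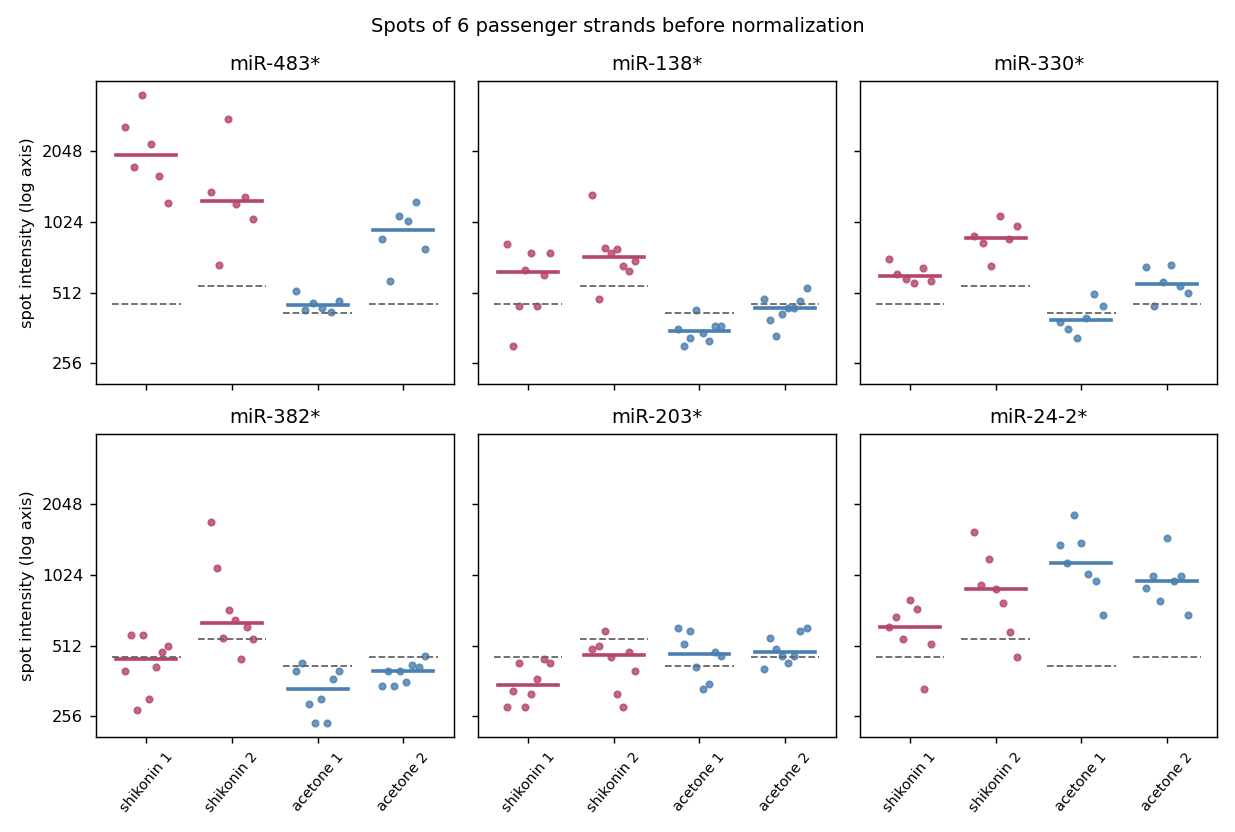
Intensity of every filled spot (log axis) for 6 passenger strands on the 4 arrays before normalization, shikonin in red and acetone in blue; thick lines are the medians and dashed lines the background thresholds. The spots of miR-483* exceed the threshold on all 4 arrays, whereas those of miR-138* straddle it on the acetone arrays.

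The other strands that exceeded background did so on 1 or 2 arrays, and were named after their values were seen. miR-135a* had 8.99 and 8.68 on the shikonin arrays and 8.77 and 8.92 on the acetone arrays, and was above background on 1 array of each group. miR-17*, miR-28* and miR-31* were above background on acetone replicate 2 alone, with log2 fold changes of -0.19, -0.11 and -0.19. That of miR-31* was -0.08 without acetone replicate 2 or shikonin replicate 2, -0.29 without acetone replicate 1 and -0.30 without shikonin replicate 1. miR-31 is a keratinocyte miRNA and miR-17 the first of the miR-17-92 cluster.

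The 72 strands above background on no array had log2 fold changes of -0.19 to 0.23, and their 95% intervals lay within -0.52 to 0.56. Their highest spot median was 0.98 times the threshold of its array. No background was subtracted, so a difference in the miRNA itself could be larger than these intervals.

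The comparison of each passenger strand with its guide asks whether both strands of a hairpin differed alike between shikonin and acetone. It was tested as the log2 level of the passenger minus that of the guide on the same array, over all 107 starred rows that had a guide row. Of the 76 pairs examined here, 60 had a higher and 16 a lower difference on the shikonin arrays, with a median of 0.33, and the median over all 107 pairs was 0.40. None passed: limma called 0 of 76, and 0.00% of all pairs, at an adjusted p under 0.05. At an unadjusted p under 0.05, 23 pairs (30.3%) were higher and 0 were lower, against 32.7% and 0.00% of all pairs. The groups did not overlap for 46 pairs (60.5%) with higher and 3 (3.95%) with lower values, against 63.6% and 4.67% of all pairs. These shares were near those over all starred rows.

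Over the 76 pairs the median log2 fold change was -0.0042 for the passenger strands and -0.27 for the guides. Of the guides, 61 of 76 had a lower mean on the shikonin arrays, 42 (55.3%) did not overlap and were lower, against 26.8% of all miRNAs, and 25 (32.9%) were lower at an unadjusted p under 0.05, against 11.0% of all miRNAs, while 0 passed the limma adjusted threshold. In 21 pairs the guide was above background on all 4 arrays and the passenger on none. There the median difference was 0.86, made of a passenger median of -0.04 and a guide median of -0.89. A passenger probe at background cannot show a fall of that size. A strand that rose above the threshold would not be in this group, which holds only passengers below it on every array. In such pairs the difference therefore follows the guide, and no split between the strands can be read. In the 27 pairs with both strands at background, the median difference was 0.0056.

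**Figure D4:**
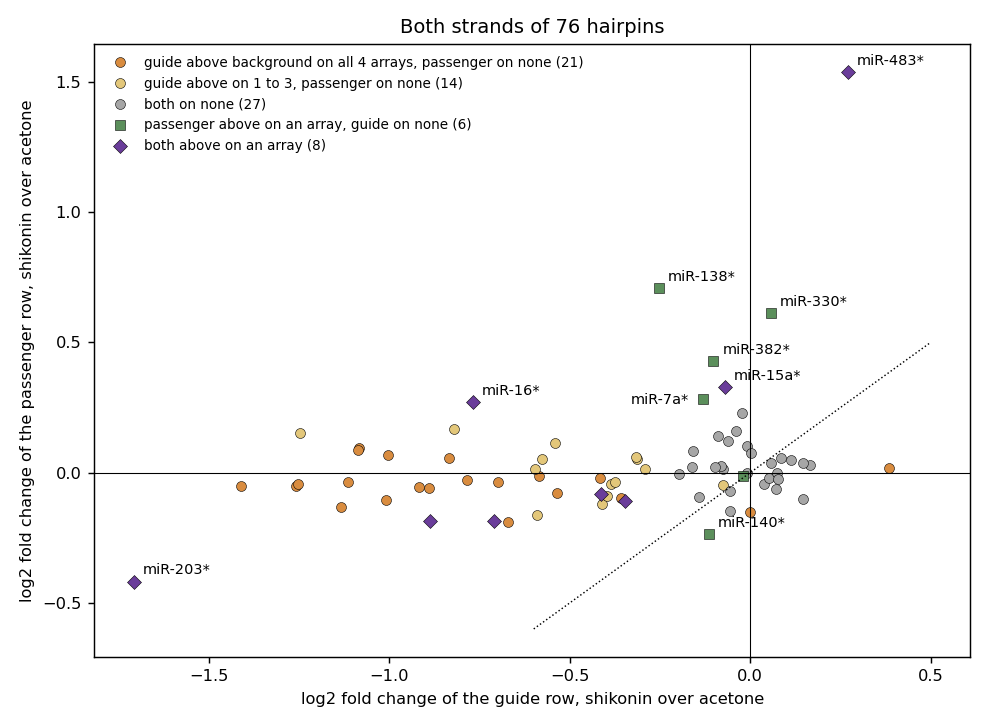
Log2 fold change (shikonin over acetone) of the guide row on the horizontal axis and of the passenger row on the vertical axis for 76 pairs, coloured by how many arrays each strand was above background on. The dotted line marks equal fold changes; pairs with a bright guide and a passenger at background spread along the horizontal axis at 0, and miR-483* and miR-203* lie at opposite corners.

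Only 3 pairs had both strands above background on the same array for at least 2 arrays. For miR-483* the passenger minus guide difference was 0.60 and -0.06 on the shikonin arrays and -1.45 and -0.55 on the acetone arrays. The groups did not overlap, and the contrast was 1.27 (SE 0.40), with a limma adjusted p of 0.104. It was 0.73 without acetone replicate 1 and 1.70 without shikonin replicate 2. For miR-203* it was -2.90 and -1.01 on the shikonin arrays and -3.19 and -3.29 on the acetone arrays. The fitted contrast was 1.29 (SE 0.64, limma adjusted p 0.235). Because miR-203* was above background on the acetone arrays alone, its shikonin level is only a bound, and which strand differed more cannot be read from it. The contrast was -0.68 in the authors' value table. It was 2.23 without shikonin replicate 1 and 0.41 without shikonin replicate 2. In fits without an array the lone array of a group is assumed to vary like the others. Without shikonin replicate 1 every pair had the same SE (0.42), and likewise without shikonin replicate 2 (0.45). Such an SE does not measure a pair's own spread, so only the effect sizes are given. For miR-322* the contrast was 0.33 (SE 0.20, limma adjusted p 0.314), and 0.16 without acetone replicate 1.

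In 6 pairs the passenger strand was above background on some array and the guide on none. They were miR-140*, miR-330*, miR-7a*, miR-138*, miR-135a* and miR-382*. Their contrasts ran from -0.12 for miR-140* to 0.96 for miR-138* (SE 0.18, limma adjusted p 0.0738). miR-330* had 0.55 (SE 0.18, limma adjusted p 0.106) and miR-382* 0.53 (SE 0.17, limma adjusted p 0.104). Among these hairpins the guide level is only a bound, so a difference between the strands cannot be read from the contrasts. The guide rows at background also entered them. For miR-138* the log2 fold change was 0.71 in the passenger row and -0.25 in the guide row, and for miR-140* -0.24 and -0.12.

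When the hairpin number was left out of the name, 10 more strands could be set beside a guide, and the test was rerun on 117 pairs. miR-24-2* had a contrast of 1.02 (SE 0.27, limma adjusted p 0.0873) with miR-24, whose own log2 fold change was -1.42 (SE 0.25, limma adjusted p 0.134). miR-24 had 11.94 and 11.57 on the shikonin arrays and 13.46 and 12.89 on the acetone arrays.

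Of the let-7 family, tumour suppressor miRNAs that repress Lin28 and Ras, only guides were above background. Of its 8 passenger strands, 0 were above background, and their log2 levels ran from 8.20 to 8.85 on the shikonin arrays and from 8.23 to 8.79 on the acetone arrays. Their log2 fold changes ran from -0.13 to 0.15, with a median of -0.02. Of its 7 guides, 6 were above background on all 4 arrays, and in all 7 each shikonin array read lower than each acetone array, as in 26.8% of all miRNAs. The guide levels ran from 8.89 to 11.52 on the shikonin arrays and from 10.03 to 12.73 on the acetone arrays, with a median log2 fold change of -1.25. The lowest adjusted p of all pairs, 0.0716 with limma, was that of let-7g* and let-7g. The passenger probe was at background, and this difference is mostly that of the guide row (log2 fold change -1.25, against 0.15 for let-7g*).

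**Figure D5:**
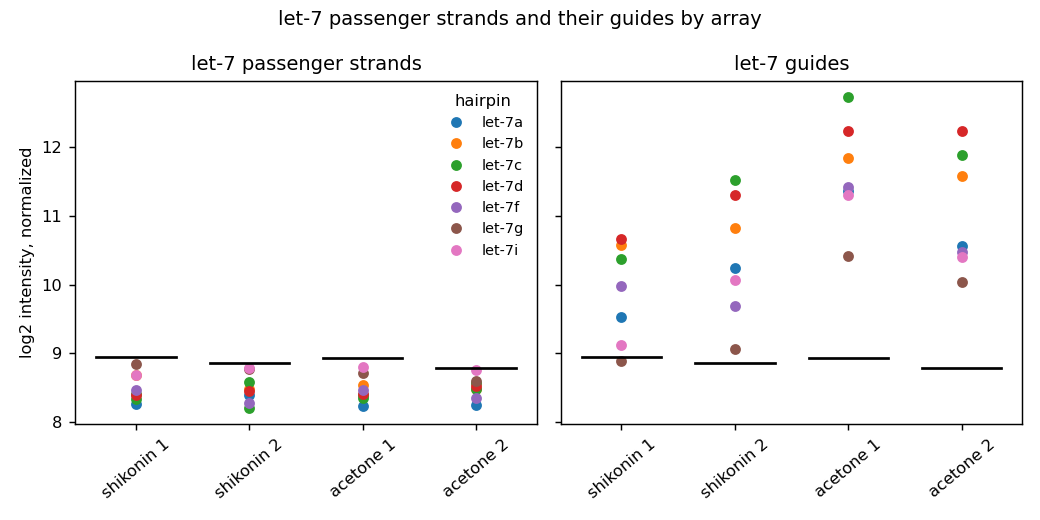
Normalized log2 intensity of the 8 let-7 passenger strands (left) and of their 7 guides (right) on the shikonin and acetone arrays, each colour a hairpin name (let-7c has 2 passenger strands), with the background threshold of each array as a black line. No passenger strand exceeds the threshold, and each guide lies lower on the shikonin than on the acetone arrays.

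Guides above background whose passenger strand was at background are given here by their levels. These pairs were named after their values were seen. miR-27b, which acts in lipid metabolism and angiogenesis, had a log2 level of 11.04 and 10.19 on the shikonin arrays and 11.88 and 12.17 on the acetone arrays. miR-27b* had 8.43 and 8.45 on the shikonin arrays and 8.48 and 8.50 on the acetone arrays, below the threshold on each. miR-20a, of the miR-17-92 cluster, had 9.66 and 9.40 on the shikonin arrays and 10.42 and 10.82 on the acetone arrays. miR-20a* had 8.67 and 8.55 on the shikonin arrays and 8.48 and 8.56 on the acetone arrays, also below the threshold. For both guides each shikonin array read lower than each acetone array.

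miR-21, which is induced in wounds and inflamed skin, was above background but did not separate the groups, with 10.40 and 11.33 on the shikonin arrays and 11.48 and 11.08 on the acetone arrays. miR-21* lay at 8.65 and 8.62 on the shikonin arrays and 8.66 and 8.65 on the acetone arrays, below the threshold on each. The level of miR-15b was 11.19 and 12.40 on the shikonin arrays and 11.20 and 11.62 on the acetone arrays, and its groups overlapped. Its passenger strand was at background.

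In 8 pairs both strands were above background on some array, and their contrasts ran from 0.24 to 1.29. miR-16, the guide of miR-16*, had 12.67 and 13.61 on the shikonin arrays and 13.91 and 13.91 on the acetone arrays. The groups did not overlap, and the passenger strand was above background on shikonin replicate 2 alone. miR-31, which is raised in psoriatic and wounded epidermis, had 10.00 and 8.94 on the shikonin arrays and 9.61 and 10.74 on the acetone arrays, with overlapping groups, and miR-31* was above background on acetone replicate 2 alone.

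The miR-17-92 cluster and its paralogs promote proliferation. Of its 8 passenger strands 1, miR-17*, was above background on an array, and their log2 fold changes ran from -0.19 to 0.09. Its 8 guides were all above background on at least 1 array, with log2 fold changes of -1.09 to -0.31. The passenger strands of the miR-23/27/24 clusters numbered 4, with miR-24-2* above background and log2 fold changes of -0.40 to -0.05. Their 3 guides had log2 fold changes of -1.42 to -1.13 and each read lower on both shikonin arrays than on either acetone array, as in 26.8% of all miRNAs.

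The 9 strands listed under skin epithelium had a median log2 fold change of -0.09. They were miR-203*, miR-31*, miR-183*, miR-21*, miR-24-1*, miR-24-2*, miR-27b*, miR-26b* and miR-193*. Of these, miR-21*, miR-24-1*, miR-24-2* and miR-27b* are also on other lists. Of the 9, 1 had a higher and 8 a lower mean on the shikonin arrays. In 4 the groups did not overlap (miR-203*, miR-24-1*, miR-27b* and miR-193*, all lower, where 26.8% of all miRNAs were). Above background on an array were 3 of the 9, miR-203*, miR-31* and miR-24-2*. Of the 4 that did not overlap, only miR-203* was. The 8 guides of this list were all lower on the shikonin arrays by their means, and 3 were lower at an unadjusted p under 0.05, against 11.0% of all miRNAs. The 5 strands of leukocyte and inflammation hairpins (miR-150*, miR-146b*, miR-21*, miR-181a-1*, miR-181a-2*) were above background on no array, with log2 fold changes of -0.12 to 0.04. The 2 stromal strands, miR-22* and miR-99b*, were also at background, with -0.19 and 0.17. The 5 strands miR-99b*, miR-125b*, miR-10a*, miR-10b* and miR-196a*, of families encoded in part in the Hox clusters, were at background, with log2 fold changes of -0.16 to 0.17.

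The Dlk1-Dio3 cluster is an imprinted group of miRNA genes that is expressed in embryo and brain. Of the 11 passenger strands on its list 8 had a higher and 3 a lower mean on the shikonin arrays, with a median log2 fold change of 0.05, and 4 did not overlap (miR-376b*, miR-376c*, miR-382* and miR-433*, all higher, where 22.4% of all miRNAs were). By position 13 of the strands lie in its span, chr12:109590502-109738495, with miR-127* and miR-136*, found after the values were seen, besides those on the list. Of these 13, 9 had a higher and 4 a lower mean on the shikonin arrays, with a median of 0.02. Only miR-382* was above background on an array, and 2 of the 11 guides of the list were. The 12 strands of brain and other non-skin hairpins had a median log2 fold change of 0.08. Of these 8 had a higher mean on the shikonin arrays, 5 did not overlap and were higher, where 22.4% of all miRNAs were (miR-7a*, miR-124*, miR-138*, miR-218-2* and miR-302b*), and miR-7a* and miR-138* were above background. Their 11 guides were above background on no array, but 9 of them are among the 37 miRNAs that set the background.

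Among the 80 strands with a RefSeq sequence, the 15 above background had a median GC content of 50% (36.4% to 61.9%) and the 65 at background one of 47.8% (31.8% to 63.6%). The median length was 22 bases in both. GC content and mean log2 level had a Pearson's r of 0.316 over the 80 strands and of 0.324 over the 65 at background. Across the 87 strands, Pearson's r of the log2 levels was 0.876 between the shikonin arrays and 0.884 between the acetone arrays. Over the 72 strands at background r was 0.590 and 0.735. Strands are not independent replicates, and a probe's own brightness enters this value.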

How the data were processed

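Total RNA of mouse abdominal skin was hybridized by the authors to a Geniom biochip (febit) with probes for the mature miRNAs of miRBase 14.0. The authors deposited linear intensity for each spot, not normalized and with no background column. The authors also deposited log2 values per miRNA and array; the scale of their replicate 1 columns is unknown, and they were used as an alternative only. Samples were grouped by treatment in the labels. The number of arrays limits the precision.

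Empty spots (4.21% to 7.01% of an array) were left out, and the spot medians were quantile normalized over the 4 arrays, set to at least 1 and put on the log2 scale. All 710 miRNAs were tested, two-sided, in limma 3.58.1 (R 4.3.3) with Benjamini-Hochberg adjustment over all of them and a threshold of 0.05, and pairs over all 107 of the table. The code was tested on simulated data. The pair test subtracts the guide's level from the passenger's on the same array, and only the change of that difference between treatments was read. Apart from the correlation with GC content, levels of different probes were not otherwise compared.

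Named were members above background on all 4 arrays, those with the highest and lowest log2 fold change among members above background on both arrays of a group (up to 5 each way), likewise pairs with both strands above background on 2 arrays, and their guides. Others were named after their values were seen. The members and lists were chosen with earlier results of these data known.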

Additional observations from a re-analysis of the deposited data

How the results depend on the processing

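Limma tests of the 4 arrays called 2 of 710 miRNAs, 0 of 87 passenger strands and 0 of 107 pairs at an adjusted p under 0.05. The count over all miRNAs was 0 with cyclic loess, with the mean of the spots, with a filter to miRNAs above background on at least 2 arrays, with the authors' value table, and without any 1 array. It was 38 with an intensity trend, 83 with no normalization and 577 with scaling to the 75th percentile over miRNAs above background on all 4 arrays. That last scaling moved the median of all miRNAs by 0.83, and 80 passenger strands passed, with medians of 0.82 for passengers and 0.50 for guides. Relative to all miRNAs these medians were 0.0013 and -0.32. With no normalization the shift was 0.15, and with the filter -0.16. Passenger strands called numbered 1 with no normalization (miR-483*) and 1 with an intensity trend (miR-138*). Pairs called, all higher, were 30 with either scaling or no normalization, 3 with quantile normalization without the repeat-rich families, 14 with normexp and 20 with an intensity trend. Without any 1 array they were 0 to 15, and 1 of the 14 without shikonin replicate 1 was lower. In the fits without a shikonin array these counts rest on an SE shared by all pairs. With no normalization every miRNA likewise had the same SE (0.34). The same held with scaling over miRNAs above background on all 4 arrays (0.32). In those settings the counts of miRNAs and passenger strands, and the call of miR-483*, therefore do not rest on a miRNA's own spread. The cause of the varying counts was not tested.

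The passenger median was 0.073 with scaling over all miRNAs, 0.14 with no normalization, -0.026 with normexp, 0.0094 with spot means, 0.086 with the value table and -0.026 to 0.0049 without any 1 array. The guide median was -0.18 with no normalization, -0.21 without the repeat-rich families, -0.48 with normexp, -0.67 with the filter, -1.01 with the value table and -0.26 to -0.20 without any 1 array. Passenger strands above background numbered 23 at 2 and 9 at 5 median absolute deviations, and 17 with the table-order drift removed, settings chosen after seeing the data.

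The log2 fold change of miR-483* was 1.10 to 3.48 over 17 alternatives, that of miR-138* 0.64 to 2.39 and that of miR-330* 0.50 to 1.57. These ranges include the authors' value table, in which the scale of the replicate 1 columns is unknown. Without any 1 array they were 1.10 to 2.17 for miR-483*, 0.64 to 0.80 for miR-138* and 0.50 to 0.77 for miR-330*. Directions turned for dimmer differences. Scaling over bright miRNAs gave 0.80 for miR-135a*, 0.38 for miR-140*, 0.65 for miR-17*, 0.44 for miR-203*, 0.17 for miR-24-2*, 0.72 for miR-28*, 0.63 for miR-31*, 0.72 for miR-322*, 0.58 for miR-138, 0.73 for miR-140, 0.30 for miR-322 and 0.69 for miR-7a. No normalization gave 0.12 for miR-135a*, 0.043 for miR-28*, 0.042 for miR-322*, 0.050 for miR-140, -0.043 for miR-483 and 0.0079 for miR-7a. Scaling over all miRNAs gave 0.049 for miR-135a* and -0.11 for miR-483. The value table gave 0.89 for miR-135a*, 0.30 for miR-31* and -0.68 for the contrast of miR-203* with its guide. With the drift removed miR-330 was at -0.00090. Without any 1 array miR-135a* ran from -0.17 to 0.15 and miR-140 from -0.25 to 0.017.

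The replicate numbers share no stated animal or batch, and the deviations of same-numbered arrays had a correlation of -0.28. With a replicate block limma called 0 of 710 miRNAs, 0 passenger strands and 0 pairs. A crossed replicate block, chosen after seeing the data, called 35 miRNAs, 1 passenger strand and 17 pairs.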
